A study of Mus musculus with 12 samples.

Results

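Semaphorins, their plexin receptors and their neuropilin co-receptors were examined in the dorsal cortex of mouse embryos with and without Ash2l. The members were chosen by gene symbol alone, as semaphorins of classes 3 to 7, plexins of classes A to D, Plxdc1, Plxdc2, Nrp1 and Nrp2. This gave 33 of the 27179 genes in the count tables, of which 26332 carry a symbol. They comprise 20 semaphorins, 9 plexins, 2 neuropilins and 2 Plxdc genes, which encode proteins with a plexin-like domain and are not semaphorin receptors.

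Semaphorins are guidance proteins that steer growing axons and migrating neurons, mostly by repulsion. Class 3 semaphorins are secreted and signal through a complex of a neuropilin, which binds the ligand, and a class A plexin, which carries the signal through a GTPase-activating domain inside the cell. Semaphorins of classes 4, 5 and 6 span the membrane and bind plexins directly, and class 7 is anchored to the membrane by a lipid. In the developing cortex these proteins act in radial migration, in the growth of callosal and corticofugal axons and in the ingrowth of vessels.

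Bulk RNA was sequenced from 12 dorsal cortex libraries of strain C57BL/6, in 4 groups of 3. The groups were Ash2l conditional knockout (cKO) at embryonic day E16.5, wild type (WT) at E16.5, cKO at E14.5 and WT at E14.5. The Ash2l protein belongs to the core of COMPASS, the complexes that write methylation on lysine 4 of histone H3, and the series asks for its role as the cortex forms. It was deleted with D6-Cre, a Cre driver active in the dorsal telencephalon, and the RNA came from all cells of the dissected tissue. Within an age, libraries are named A, B and C by rising first number of their titles, a number that cKO A and WT A have in common, as do the B and the C libraries. The labels do not say what it stands for, nor which embryos or litters gave the libraries. Lists of 3 values below run in the order A, B, C.

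Ash2l itself checked the labels, with 54.4, 60.7 and 59.3 CPM (a count scaled to the size of its library) in E16.5 cKO against 135, 129 and 135 CPM in E16.5 WT, and 46.9, 60.0 and 51.4 CPM in E14.5 cKO against 126, 143 and 118 CPM in E14.5 WT. Libraries held between 14318147 and 24719047 counts. Dorsal cortex markers such as Emx1, Neurod6 and Tbr1 were present in every group. A few libraries stood apart. Summed meningeal markers were 506 CPM in E14.5 cKO A, against 49.5 and 95.6 CPM in the other E14.5 cKO libraries. Summed GABAergic and ventral markers were 615 CPM in E14.5 WT B, against 202 and 319 CPM in the other E14.5 WT libraries. The choroid plexus gene Ttr reached 572 CPM in E16.5 WT C and 429 CPM in E14.5 WT A. Xist and Y-linked genes showed 3 female cKO and 3 male WT libraries at E14.5, so genotype and embryo sex cannot be told apart there within the age. At E16.5, cKO C and WT A were female and the other 4 libraries were male.

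When levels were set per length of exon, the 7 highest members were receptors or co-receptors. The co-receptor Nrp2 (26.3 CPM per kilobase) and the receptors Plxnd1 (10.8) and Plxnc1 (6.64) lay among the ligands, and Plxnb3 lay lowest. Plxna2, a class A plexin that binds class 6 semaphorins and pairs with neuropilins, had the highest level, with a mean of 134 CPM per kilobase over the 12 libraries. Plxnb2, a class B plexin, followed at 50.4, the semaphorin 3A co-receptor Nrp1 at 50.1, Plxna4 at 46.9 and Plxna3 at 35.8 CPM per kilobase. The highest ligands on the same scale were Sema4c at 27.2, Sema6c at 26.3 and Sema6d at 26.3 CPM per kilobase, and the highest secreted ligand was Sema3c, at 19.0 CPM per kilobase. At the low end Sema3d, Sema3b, Sema3e and Sema3g lay under 1 CPM per kilobase, between 0.397 and 0.884. Plxnb3 had between 0 and 14 counts per library and Plxdc1 between 0 and 17. These 2 did not pass the filter on low counts, so 31 of the 33 members were tested in each comparison.

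**Figure D1:**
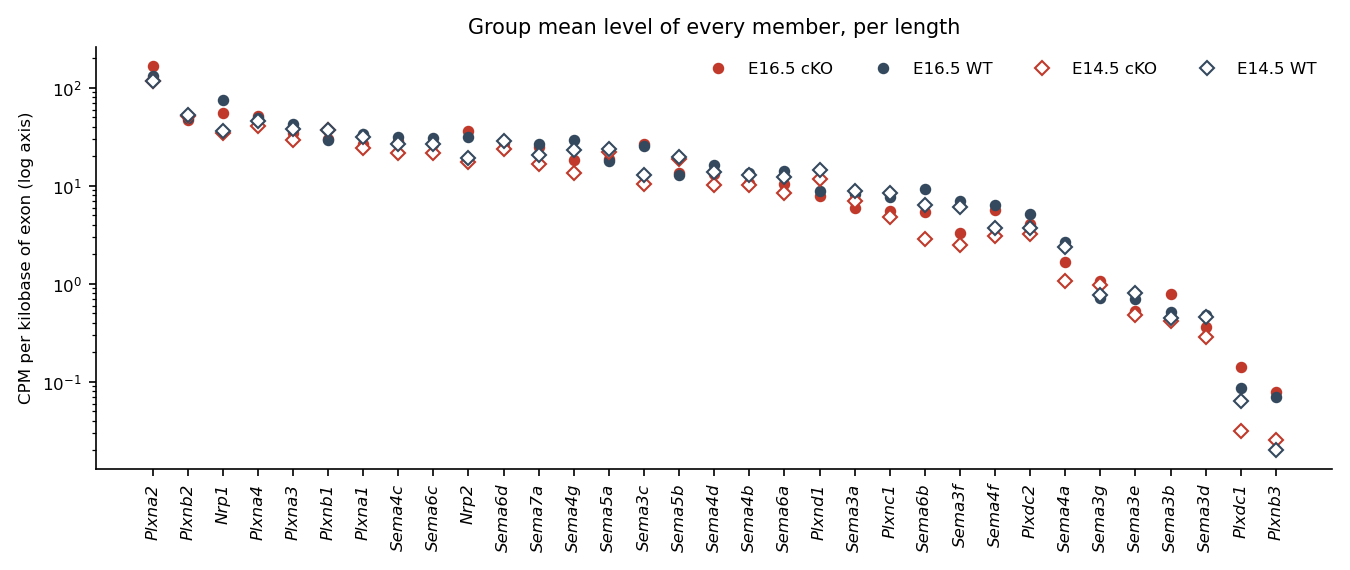
Group mean level of each of the 33 members in CPM per kilobase of exon (log axis), ordered by the mean of all 12 libraries; filled circles are E16.5, open diamonds E14.5, red cKO and dark blue WT (n = 3 libraries per point). Plxna2 stands highest, at 134 CPM per kilobase over all libraries, and Plxdc1 and Plxnb3 lie at the bottom.

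At E16.5, 7 members were lower in cKO cortex than in WT cortex and 0 were higher, at an adjusted p under 0.05 in edgeR's quasi-likelihood test. The 7 were 5 semaphorins, namely Sema6a, Sema4g, Sema3f, Sema6b and Sema4b, and 2 plexins, Plxna1 and Plxnc1. The 7 lower members of 31 stand beside 9.88% of all 14865 genes called lower, and the 0 higher members beside 5.98% called higher. The median log2 fold change, cKO over WT, was -0.21 over the members and 0.02 over all genes. A negative value was found in 21 of 31 members, against 47.4% of all genes. In bulk tissue, fewer cells of a type and less RNA per cell cannot be told apart.

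Sema3f, on chromosome 9 (107681502-107710475, mm10), encodes a secreted ligand that repels axons through Nrp2 and Plxna3. It had 14.1, 10.5 and 9.25 CPM in E16.5 cKO, against 27.8, 25.2 and 18.8 CPM in E16.5 WT. The groups did not overlap, and the highest cKO library lay below the lowest WT library. The log2 fold change was -1.08 (SE 0.197, adjusted p = 0.0107), the largest decrease among the members at this age. Its co-receptor Nrp2 had 314, 361 and 215 CPM in E16.5 cKO against 255, 273 and 243 CPM in E16.5 WT. The Nrp2 groups overlapped, because cKO C lay below all WT libraries while cKO A and B lay above them (log2 fold change 0.20, adjusted p = 0.451).

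Sema4g, a transmembrane ligand on chromosome 19 (44989344-45003395), binds Plxnb2 in the mouse cerebellum. Its level was 86.9, 75.9 and 75.1 CPM in E16.5 cKO and 138, 128 and 109 CPM in E16.5 WT. The cKO libraries were all under the WT libraries, and the log2 fold change was -0.66 (SE 0.102, adjusted p = 0.00582). Plxnb2 differed little, with group means of 308 ± 10.99 CPM in cKO and 326 ± 14.1 CPM in WT (SD, n = 3 each; log2 fold change -0.09, adjusted p = 0.396). Sema4b, on chromosome 7 (80186841-80226524), is a class 4 ligand found at synapses. It had 41.6, 46.5 and 39.6 CPM in E16.5 cKO against 53.4, 56.0 and 51.6 CPM in E16.5 WT. The groups were separate, by a narrow margin, and the log2 fold change was -0.34 (SE 0.0862, adjusted p = 0.035).

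The class 6 ligands Sema6a and Sema6b bind Plxna2 and Plxna4 and act in axon guidance and neuronal positioning. Sema6a, on chromosome 18, had 70.0, 71.6 and 72.1 CPM in E16.5 cKO, against 100.3, 100.1 and 94.2 CPM in E16.5 WT. Libraries within each group were close to each other and the groups were far apart, which gave the smallest adjusted p among the members (log2 fold change -0.47, SE 0.0614, adjusted p = 0.0034). Sema6b, on chromosome 17 (56123085-56140343), had 26.0, 20.6 and 17.6 CPM in E16.5 cKO against 44.6, 36.6 and 29.5 CPM in E16.5 WT. The groups did not overlap, although libraries within each spread widely. Its log2 fold change was -0.79 (SE 0.184, adjusted p = 0.0261).

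The receptors that fell were Plxna1 and Plxnc1. Plxna1, on chromosome 6 (89316313-89362613), is a partner of the neuropilins in class 3 signalling and also binds class 6 ligands. It had 258, 238 and 222 CPM in E16.5 cKO, against 327, 302 and 285 CPM in E16.5 WT. The groups did not overlap, and the log2 fold change was -0.35 (SE 0.0785, adjusted p = 0.0218). Plxnc1, on chromosome 10 (94790866-94944578), is the receptor of Sema7a. Its level was 31.7, 40.3 and 45.7 CPM in E16.5 cKO and 54.2, 55.7 and 53.6 CPM in E16.5 WT. The WT libraries were nearly equal and all lay above the scattered cKO libraries (log2 fold change -0.48, SE 0.126, adjusted p = 0.0392). The ligand Sema7a had overlapping groups, with means of 82.1 ± 12.5 CPM in cKO and 86.8 ± 13.0 CPM in WT (SD, n = 3 each; adjusted p = 0.715).

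**Figure D2:**
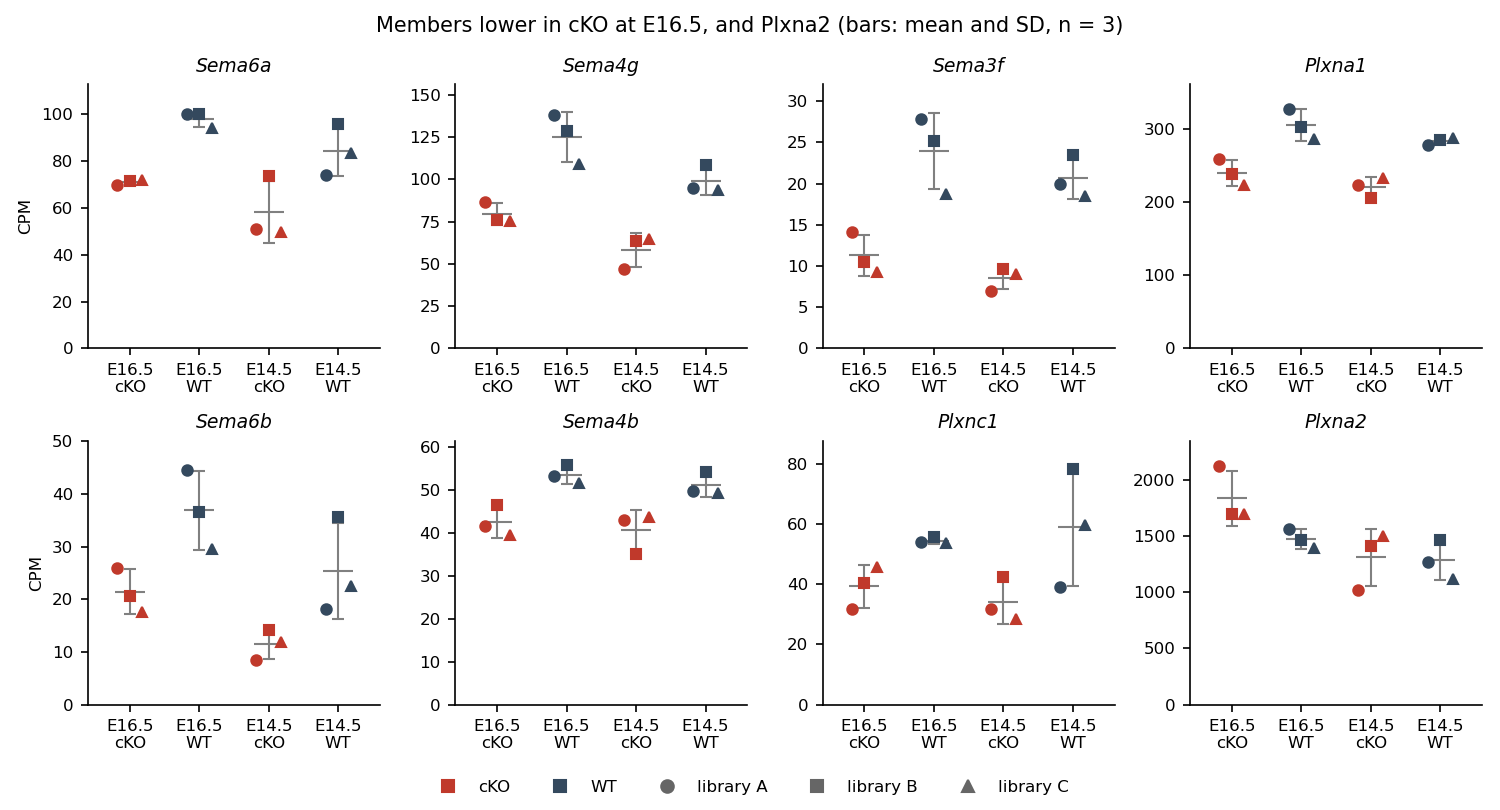
Level in CPM of the 7 members called lower at E16.5 and of Plxna2, in each library (circle A, square B, triangle C) with the group mean and SD (n = 3), cKO in red and WT in dark blue, E16.5 left of E14.5. In each of the 7 genes the 3 E16.5 cKO libraries lie below the 3 E16.5 WT libraries, and Plxna2 runs the other way at E16.5.

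The title numbers were taken to pair the libraries at E16.5, where each same-numbered pair deviated together. The C pair did so only weakly (correlation 0.112), and the different-numbered cKO B and WT C did so about as much (0.107). With the number as a replicate block 14 members passed, 13 lower and 1 higher. All genes gave 17.9% lower and 14.3% higher in that fit, so the background was larger as well. The 7 members named above were again called lower. The additional calls were Nrp1 (log2 fold change -0.46, adjusted p = 0.000193), Sema4a (-0.69, 0.00952), Sema4d (-0.32, 0.00975), Sema6c (-0.21, 0.0155), Plxna3 (-0.31, 0.0219) and Sema4c (-0.15, 0.0449), all lower, and Plxna2 (0.31, 0.00212), which was higher. Nrp1, the co-receptor of Sema3a, had 345, 372 and 258 CPM in E16.5 cKO against 464, 476 and 384 CPM in E16.5 WT. The Nrp1 groups did not overlap, although without the block the adjusted p was 0.072. Plxna2 had 2120.0, 1700.0 and 1693 CPM in E16.5 cKO against 1566, 1466 and 1392 CPM in E16.5 WT, again without overlap, and its adjusted p without the block was 0.0764.

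Among members not called in either fit at E16.5, the largest differences were in lowly expressed secreted ligands. Sema3g, which vessels express, had 4.31, 3.94 and 3.63 CPM in E16.5 cKO against 2.81, 2.73 and 2.46 CPM in E16.5 WT (log2 fold change 0.56, adjusted p = 0.0808 without the block and 0.0671 with it). Its cKO libraries all lay above the WT libraries. Summed endothelial and pericyte markers ran from 175 to 300.4 CPM in E16.5 cKO and from 218 to 266 CPM in E16.5 WT, and their part in the Sema3g values was not tested. Sema3b had 4.47, 2.39 and 1.32 CPM in cKO against 1.33, 1.16 and 2.77 CPM in WT, so its log2 fold change of 0.63 (SE 0.496) rested on cKO A. The Nrp1 ligand Sema3a had 43.0, 32.7 and 55.2 CPM in cKO against 58.9, 62.1 and 58.8 CPM in WT (log2 fold change -0.47, adjusted p = 0.0958), without overlap. Class 5 semaphorins and the class B plexins that were tested had log2 fold changes between -0.09 and 0.06, and Sema6d, a class 6 ligand that binds Plxna1, had 0.15 (adjusted p = 0.314). All 6 class 4 semaphorins had negative values at E16.5, from -0.66 to -0.15, against 47.4% of all genes.

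Several of the 7 calls depended on single libraries or on the model. Sema4g and Sema6a passed in each of the 6 fits that left out 1 library. Sema3f lost its call without WT B (adjusted p = 0.0503) or cKO B (0.0554). Sema6b and Plxna1 each lost theirs without WT A, WT B, cKO B or cKO C, with adjusted p up to 0.102 for Sema6b and 0.0894 for Plxna1. Plxnc1 lost its call without WT A, WT B, WT C or cKO B (adjusted p up to 0.128), and Sema4b without any library except cKO B (up to 0.132). With embryo sex as a term in a fit of all 12 libraries, 3 members passed at E16.5, namely Sema3f, Sema4g and Plxna1. The same fit without that term called 5. Sema6a had a log2 fold change of -0.46 in both, with an adjusted p of 0.069 with the term and 0.047 without it.

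Promoters of called members are shown because methylation of histone H3 lysine 4 typically marks promoters rich in CG pairs. They come from RefSeq on GRCm38.p6, the assembly that mm10 names, and run from 250 bases before to 50 after the start, read 5′ to 3′ along the gene, with each CG pair in capitals. The table held 37 promoters for 26 of the 33 members. It held none for Sema3f or Plxna1, Sema6a is not shown, and for Sema6b and Sema4b, which have 2 starts each, the start farthest upstream is given. The windows are chr19:44989094-44989393 on the plus strand for Sema4g, chr17:56140294-56140593 on the minus strand for Sema6b, chr7:80186620-80186919 on the plus strand for Sema4b and chr10:94944796-94945095 on the minus strand for Plxnc1.
Sema4g: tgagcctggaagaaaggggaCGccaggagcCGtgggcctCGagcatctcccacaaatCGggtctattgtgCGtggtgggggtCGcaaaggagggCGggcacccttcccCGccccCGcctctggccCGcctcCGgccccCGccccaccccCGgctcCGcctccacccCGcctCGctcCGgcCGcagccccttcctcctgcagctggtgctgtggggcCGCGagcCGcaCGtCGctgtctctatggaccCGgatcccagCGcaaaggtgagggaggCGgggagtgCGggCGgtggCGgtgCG
Sema6b: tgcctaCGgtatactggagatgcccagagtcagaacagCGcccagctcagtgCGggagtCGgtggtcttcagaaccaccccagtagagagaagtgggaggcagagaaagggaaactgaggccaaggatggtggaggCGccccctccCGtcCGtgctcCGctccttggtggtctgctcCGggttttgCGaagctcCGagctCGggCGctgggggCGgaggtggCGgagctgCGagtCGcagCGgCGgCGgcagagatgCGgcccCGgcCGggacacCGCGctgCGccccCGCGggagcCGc
Sema4b: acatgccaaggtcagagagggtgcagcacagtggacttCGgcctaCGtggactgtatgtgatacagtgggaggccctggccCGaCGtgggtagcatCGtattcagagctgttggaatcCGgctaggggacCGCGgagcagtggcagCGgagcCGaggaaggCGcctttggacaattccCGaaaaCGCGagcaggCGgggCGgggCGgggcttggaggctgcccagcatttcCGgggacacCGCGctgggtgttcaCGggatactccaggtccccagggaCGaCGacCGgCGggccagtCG
Plxnc1: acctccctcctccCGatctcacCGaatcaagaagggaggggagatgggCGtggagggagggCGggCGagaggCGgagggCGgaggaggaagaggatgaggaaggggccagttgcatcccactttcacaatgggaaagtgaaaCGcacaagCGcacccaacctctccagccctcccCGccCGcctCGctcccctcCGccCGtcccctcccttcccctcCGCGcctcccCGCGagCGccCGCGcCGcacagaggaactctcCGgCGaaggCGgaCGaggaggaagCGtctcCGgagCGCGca

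These 4 windows held 30, 29, 26 and 30 CG pairs, in the order shown. The other start held 6 CG pairs for Sema6b and 28 for Sema4b. The Plxnc1 window lay wholly upstream of the gene as counted, which starts at 94944578 on the minus strand. Of all 32851 promoters in the table, 11.7% held at least 30 CG pairs, 12.9% at least 29 and 16.9% at least 26. Members that did not fall also had such promoters, with 36 CG pairs for Plxnb1, 37 for Nrp2 and 42 for Sema3c. Over all 37 member promoters the median was 15 CG pairs, against 7 over all promoters. The TCF/LEF motif CTTTGAT and the E-box CAGATG were searched on both strands, and neither was in the 4 windows shown. CTTTGAT was in 1 of the 37 member promoters, that of Nrp2 (2.70%, against 3.73% of all promoters), and CAGATG was in 2, of Sema3c and Sema4a (5.41% against 17.2%).

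At E14.5, 2 members were lower in cKO cortex than in WT cortex, Sema3f and Sema4g, and 0 were higher in edgeR. The share of all 14788 genes called lower was 1.66%, and 0.352% were called higher. In that fit 12 members had an unadjusted p under 0.05, beside 2989 of all genes. DESeq2 called 7 members, all lower, beside 993 of all genes lower and 285 higher. The median log2 fold change was -0.30 over the members and 0.03 over all genes, and 29 of 31 members had a negative value, against 46.1% of all genes. Without E14.5 WT B, rich in ventral markers, and cKO A, rich in meningeal markers, 3 members passed, Sema3f, Sema4g and Plxnd1. All 3 were lower, beside 525 of 14973 genes lower and 96 higher. E14.5 WT A, which stood apart in Ttr, stayed in that fit.

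Sema3f had 7.0, 9.62 and 8.99 CPM in E14.5 cKO against 19.9, 23.5 and 18.5 CPM in E14.5 WT. The groups lay far apart, and the log2 fold change was -1.26 (SE 0.161, adjusted p = 0.0207), or -1.05 (adjusted p = 0.0104) without WT B and cKO A. Sema4g had 46.8, 63.8 and 64.7 CPM in E14.5 cKO against 94.9, 109 and 93.9 CPM in E14.5 WT. The groups did not overlap, with a log2 fold change of -0.75 (SE 0.138, adjusted p = 0.0436), or -0.56 (adjusted p = 0.0206) without WT B and cKO A. Both calls were lost when any 1 library other than cKO A was left out, with adjusted p up to 0.146 for Sema3f and 0.175 for Sema4g. In those fits the log2 fold changes ran from -1.36 to -1.16 for Sema3f and from -0.83 to -0.68 for Sema4g, and 5 to 66 of all genes passed, against 297 with all 6 libraries. Both were also lost with embryo sex as a term (adjusted p = 0.0716 and 0.0878), where the log2 fold changes were -1.27 and -0.82.

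Other members reached a similar size at E14.5 without passing in the fit on genotype alone. With the title number as a replicate block Sema4a, Sema6b, Plxnc1 and Sema6a passed (adjusted p = 0.0132, 0.00383, 0.0313 and 0.0217), as did Sema4d (0.0423). All were lower, beside 1053 of 14788 genes lower and 226 higher in that fit. DESeq2 called the same genes except Sema6a, and with embryo sex as a term none of them passed. The values below are from the fit on genotype alone. Sema4a, a class 4 ligand known from immune cells and retina, had 2.37, 5.23 and 3.57 CPM in cKO against 6.30, 10.1 and 8.22 CPM in WT (log2 fold change -1.14, adjusted p = 0.107). Sema6b had 8.51, 14.2 and 11.9 CPM in cKO against 18.1, 35.5 and 22.5 CPM in WT (log2 fold change -1.13, adjusted p = 0.0885). In both genes WT B, the library rich in ventral markers, was the highest of all 6. Without WT B the log2 fold change of Sema6b was -0.81. Plxnc1 had 31.8, 42.5 and 28.3 CPM in cKO against 39.2, 78.2 and 59.8 CPM in WT, so the groups overlapped, and its log2 fold change was -0.78 (adjusted p = 0.159), or -0.53 without WT B. Sema6a had 51.2, 73.6 and 49.9 CPM in cKO against 74.2, 95.8 and 83.3 CPM in WT (log2 fold change -0.53, adjusted p = 0.153). Its groups were separate by less than 1 CPM.

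The secreted ligand Sema3e, which binds Plxnd1 directly and shapes vessels, had 2.75, 3.56 and 3.70 CPM in E14.5 cKO against 4.25, 5.12 and 7.25 CPM in E14.5 WT (log2 fold change -0.72, adjusted p = 0.186). Sema3d had a log2 fold change of -0.67 (adjusted p = 0.27), with overlapping groups. Plxnd1, a receptor of endothelial cells and some neurons, had 124, 53.5 and 67.8 CPM in E14.5 cKO against 96.8, 104 and 98.7 CPM in E14.5 WT. Only cKO A lay above the WT libraries, and the same library had the highest levels of the endothelial gene Kdr (76.7 CPM, against 29.4 to 42.4 CPM in the other E14.5 libraries) and of Sema3g (4.74 CPM, against 2.70 to 3.21 CPM). The summed endothelial and pericyte markers of cKO A were 298 CPM, against 147 and 152 CPM in cKO B and C and 160 to 230 CPM in WT. Their part in the Plxnd1 and Sema3g values was not tested.

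**Figure D3:**
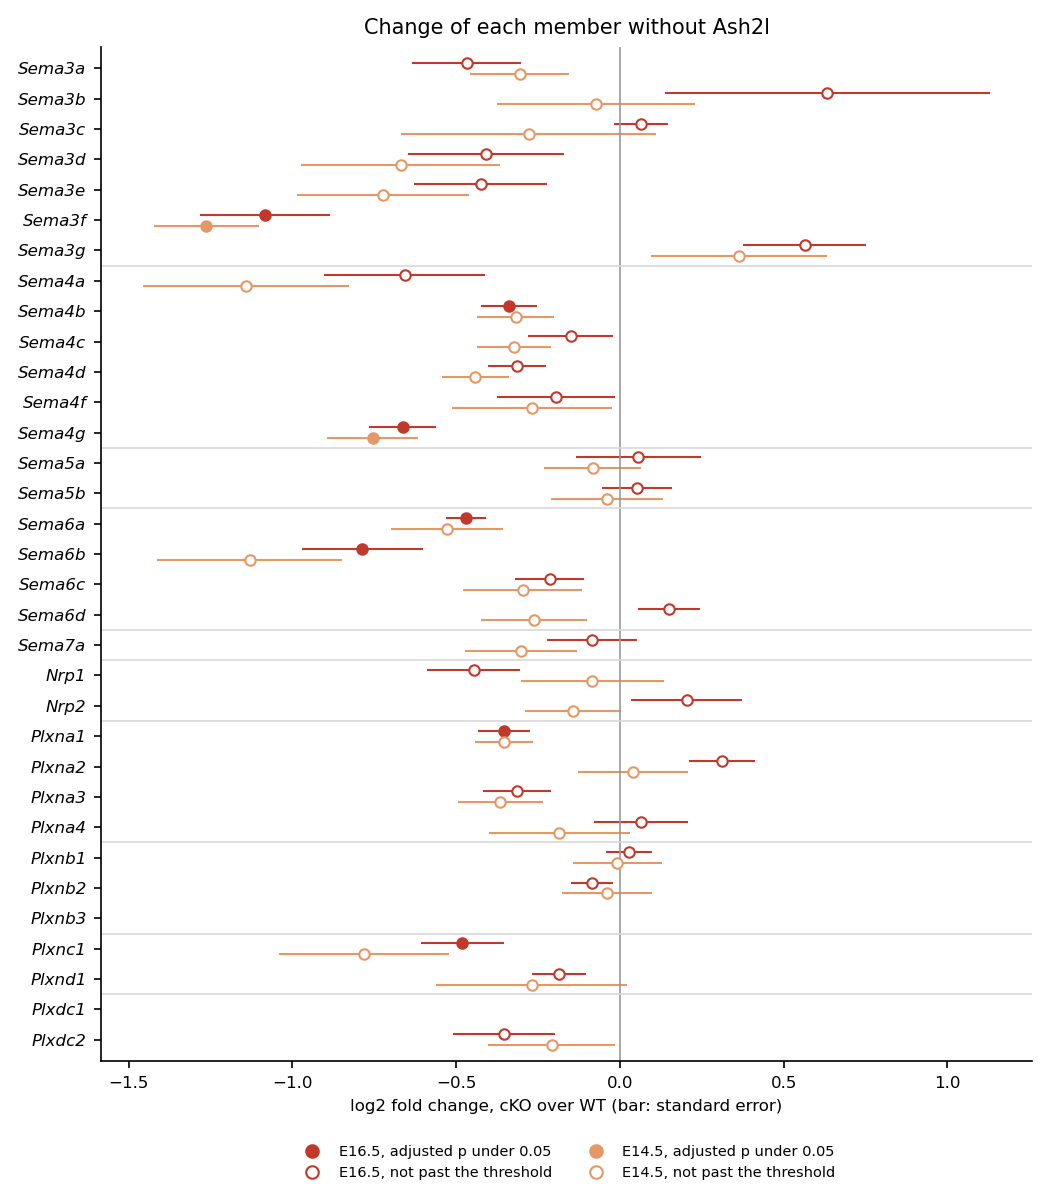
Log2 fold change of each member, cKO over WT, at E16.5 (red) and E14.5 (orange), with its standard error; filled points passed an adjusted p of 0.05 and genes without points were not tested. Sema3f and Sema4g are filled at both ages, most points lie left of 0, and Sema3g lies right of 0 at both ages.

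Taking both ages, 21 of 31 members had a negative log2 fold change at each age (67.7%, against 37.7% of all genes tested at both), and 2 had a positive one at each age (6.45%, against 44.4%). The 2 were Sema3g and Plxna2. In 8 members each cKO library was lower than each WT library at both ages, namely Sema3e, Sema3f, Sema4b, Sema4d, Sema4g, Sema6a, Sema6b and Plxna1, which is 25.8% of the members tested, against 10.2% of all genes. Within each age, 11 members were separated this way at E16.5 (18.3% of all genes) and 11 at E14.5 (14.8% of all genes). The opposite separation held for 2 members at E16.5, Sema3g and Plxna2 (19.3% of all genes), and for 0 at E14.5 (11.9%). Sema4d, the ligand of Plxnb1, had 64.0, 53.3 and 55.5 CPM in E16.5 cKO against 71.1, 75.4 and 67.5 CPM in E16.5 WT (adjusted p = 0.051). At E14.5 it had 39.1, 45.9 and 48.4 CPM in cKO against 60.1, 63.5 and 58.9 CPM in WT (adjusted p = 0.0766). Its receptor Plxnb1 had log2 fold changes of 0.03 at E16.5 and -0.01 at E14.5.

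By class, summed levels of the 20 semaphorins were 1217 ± 67.2 CPM in E16.5 cKO and 1358 ± 49.7 CPM in E16.5 WT, and 1039 ± 119 CPM in E14.5 cKO and 1294 ± 99.2 CPM in E14.5 WT (SD, n = 3 each). For the 9 plexins, of which Plxna2 holds the largest part, the sums were 3625 ± 306 CPM in E16.5 cKO and 3386 ± 227 CPM in E16.5 WT, and 3014 ± 309 CPM in E14.5 cKO and 3242 ± 368 CPM in E14.5 WT. By library the plexin sums were 3974, 3409 and 3491 CPM in E16.5 cKO and 3636, 3329 and 3194 CPM in E16.5 WT. Each E16.5 cKO library lay above the WT library of its own number, while the groups overlapped.

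The difference of the cKO effect between the ages was tested directly in 1 fit of all 12 libraries. None of 31 members passed in edgeR, with 0 at an unadjusted p under 0.05 and 0 by DESeq2, and 0.0% of all 15338 genes passed. The smallest p was that of Sema6d (0.058), whose effect at E16.5 exceeded that at E14.5 by 0.43 log2 units (SE 0.203). For Sema3f the difference was 0.19 (SE 0.271), for Sema4g 0.10 (SE 0.186) and for Nrp1 -0.35 (SE 0.293). With standard errors of this size these values do not show that the effects were equal.

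Most pan-neuronal markers were lower as well. Of 18 pan-neuronal markers, 12 were lower in cKO at E16.5 (9.88% of all genes), with a median log2 fold change of -0.56, and their summed level ran from 6191 to 6451 CPM in cKO and from 8264 to 9146 CPM in WT. At E14.5 the median was -0.72, 1 marker was called lower, and the sum ran from 2965 to 5422 CPM in cKO and from 5365 to 7852 CPM in WT. In the fit of all 12 libraries 4 of the 18 were called lower at E16.5, both with and without embryo sex as a term. Of all 15338 genes, 916 were called lower with the term and 1066 without it. With 1 library left out 4 to 12 of the 18 were called lower, beside 731 to 1805 of all genes. With the replicate block 16 were lower and 1 higher (17.9% and 14.3% of all genes). Of 16 apical progenitor markers, 3 were higher and 0 lower at E16.5 (5.98% and 9.88% of all genes), with a median log2 fold change of 0.23, and with the block 8 were higher and 2 lower. Sums of some other neuron lists overlapped at E16.5. Upper-layer markers ran from 1725 to 2290 CPM in cKO and from 2126 to 2789 CPM in WT (median log2 fold change -0.375). GABAergic and ventral markers ran from 226 to 317 CPM in cKO and from 245 to 325 CPM in WT (median -0.12). Of 8 Cajal-Retzius markers, 1 was called higher and 0 lower (5.98% and 9.88% of all genes), with a median of 0.16. Some lists had separate sums. Summed glial lineage markers ran from 66.2 to 73.5 CPM in E16.5 cKO and from 78.6 to 85.5 CPM in E16.5 WT, and from 45.0 to 57.4 CPM in E14.5 cKO and from 81.1 to 94.1 CPM in E14.5 WT. Summed deep-layer and subplate markers ran from 1493 to 1805 CPM in E16.5 cKO and from 1856 to 1969 CPM in E16.5 WT, and from 1227 to 1889 CPM in E14.5 cKO and from 1938 to 2144 CPM in E14.5 WT. No semaphorin, plexin or neuropilin stands in these lists, and the part of these differences in the member values was not tested.

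Genes that carry or modify plexin and neuropilin signals were counted from a list of 46, of which 45 were tested. At E16.5, 11 were lower in cKO and 3 higher (9.88% and 5.98% of all genes), with a median log2 fold change of -0.11, and with the replicate block 17 were lower and 5 higher (17.9% and 14.3% of all genes in that fit). The 6 with the smallest p were Met, Cntn2, Dpysl4, Cdk5r1, Farp2 and Gipc1. Met, the hepatocyte growth factor receptor that associates with class B plexins, averaged 3.19 ± 0.429 CPM in E16.5 cKO and 11.9 ± 2.32 CPM in E16.5 WT (SD, n = 3 each; log2 fold change -1.90, adjusted p = 0.00189). Cntn2, an axonal adhesion molecule, averaged 1174 ± 66.2 CPM in cKO and 1713 ± 65.2 CPM in WT (-0.55, adjusted p = 0.00302). Dpysl4, of the collapsin response mediator family, averaged 52.2 ± 9.18 CPM in cKO and 101 ± 17.2 CPM in WT (-0.96, adjusted p = 0.00719). Cdk5r1, the activator of Cdk5, a kinase in Sema3a signalling, averaged 284 ± 25.1 CPM in cKO and 431 ± 49.2 CPM in WT (-0.61, adjusted p = 0.0072).

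The other 2 ran upward. Farp2, an exchange factor bound by the Nrp1 and Plxna1 complex, averaged 24.96 ± 2.40 CPM in E16.5 cKO and 15.96 ± 0.828 CPM in E16.5 WT (log2 fold change 0.64, adjusted p = 0.00797). Gipc1, an adaptor of Nrp1 and Plxnd1, averaged 55.2 ± 1.81 CPM in cKO and 41.3 ± 1.34 CPM in WT (0.41, adjusted p = 0.00878). With 1 library left out 5 to 14 of the list were lower and 1 to 3 higher, the fewest without WT B. Over all genes those fits called 731 to 1805 lower and 249 to 1050 higher. The fit of all 12 libraries called 6 of the list lower and 2 higher, beside 1066 and 816 of all 15338 genes. With embryo sex as a term it called 5 lower and 2 higher, beside 916 and 653 of all genes. At E14.5, 0 of 45 passed in edgeR, with a median of -0.20. There 15 had an unadjusted p under 0.05, beside 2989 of all 14788 genes. DESeq2 called 3 lower and 1 higher, beside 993 and 285 of all 14788 genes.

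Between the ages in WT cortex, 1 member passed in edgeR. There 10 of 31 members had an unadjusted p under 0.05, beside 4252 of all 15338 genes. DESeq2 called 6 members, 4 higher and 2 lower, beside 978 and 1027 of all genes. Nrp1 had 464, 476 and 384 CPM in E16.5 WT, against 208, 248.1 and 194 CPM in E14.5 WT. Every E16.5 library lay far above every E14.5 library, and the log2 fold change, E16.5 over E14.5, was 1.03 (SE 0.209, adjusted p = 0.038). Of all 15338 genes, 0.763% were called higher and 1.39% lower in this comparison. In cKO cortex Nrp1 had 345, 372 and 258 CPM at E16.5 and 137, 263 and 210 CPM at E14.5. The call was lost with embryo sex as a term (adjusted p = 0.0774) and without E14.5 WT A, WT C or cKO C or E16.5 WT A, WT B, WT C or cKO B (0.0611 to 0.171), while the log2 fold change stayed between 0.96 and 1.15 in all fits. Without E14.5 WT B 7 members passed, without E14.5 cKO A 7 and without E14.5 cKO B 6, where 2216 of 15621, 1813 of 15596 and 1280 of 15618 genes passed, against 330 of 15338 with all libraries.

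The members next in size did not pass. Nrp2 had 255, 273 and 243 CPM in E16.5 WT against 135, 180 and 158 CPM in E14.5 WT (log2 fold change 0.70, adjusted p = 0.0537). Sema3c, a secreted ligand that attracts callosal axons through Nrp1, had 122, 130.0 and 131 CPM in E16.5 WT against 50.8, 78.7 and 61.3 CPM in E14.5 WT (1.0, adjusted p = 0.0806). Sema4f had a log2 fold change of 0.79 (adjusted p = 0.0735). Lower at E16.5 were Plxnd1, with 64.0, 61.6 and 58.5 CPM in E16.5 WT against 96.8, 104 and 98.7 CPM in E14.5 WT (-0.70, adjusted p = 0.087), and Sema5b, a transmembrane ligand (-0.61, adjusted p = 0.0526). In 6 members all E16.5 WT libraries lay above all E14.5 WT libraries (17.0% of all genes), and in 4 they lay below (18.3%). Summed pan-neuronal markers ran from 8264 to 9146 CPM in E16.5 WT and from 5365 to 7852 CPM in E14.5 WT, and their part in these values was not tested.

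**Figure D4:**
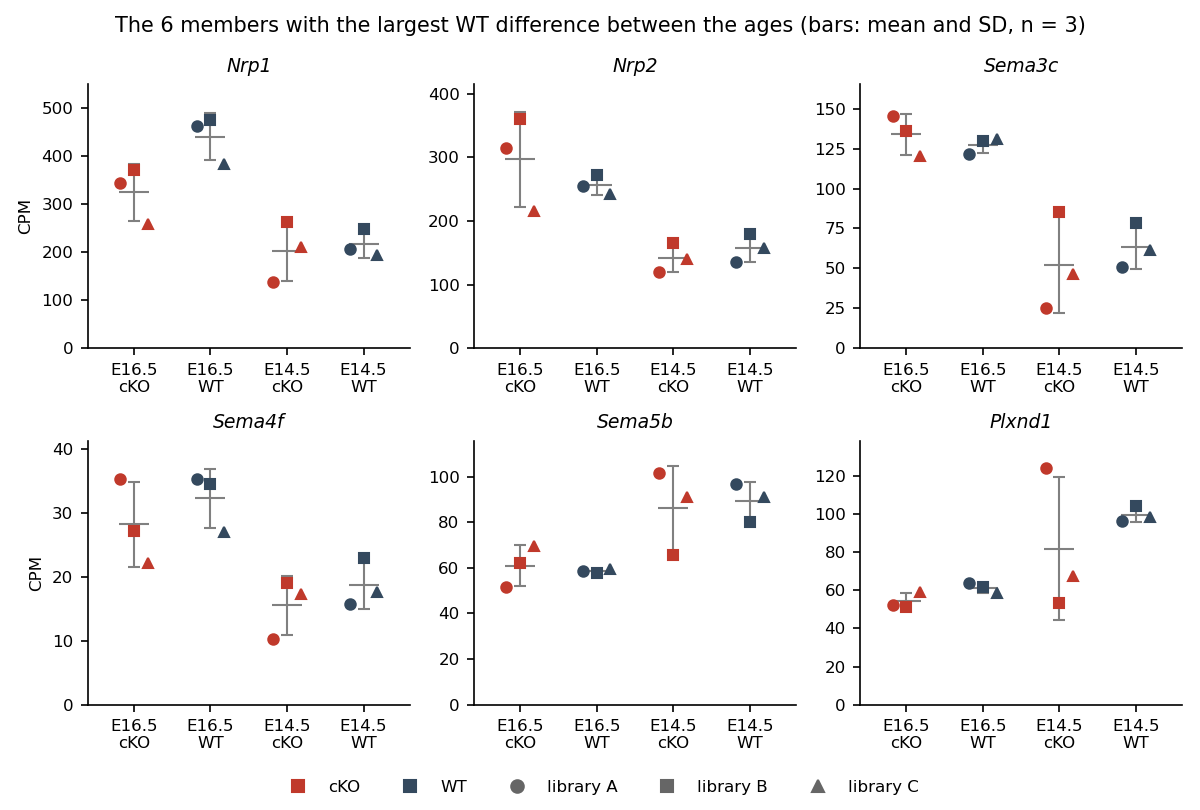
Level in CPM of the 6 members with the largest WT log2 difference between the ages, in each library (circle A, square B, triangle C) with the group mean and SD (n = 3), cKO in red and WT in dark blue, E16.5 left of E14.5. Nrp1, Nrp2, Sema3c and Sema4f stand higher in E16.5 WT than in E14.5 WT, and Sema5b and Plxnd1 stand lower.

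The authors' deposited table gives log2 ratios of WT over knockout, so positive values mean lower in knockout. At E16.5 the authors' deposited table lists 9 members lower in knockout and 1, Plxna2, higher at an adjusted p under 0.05 (10.8% and 6.26% of its genes). At E14.5 the authors' deposited table lists 7 lower and 0 higher (6.22% and 1.68%). The 6 members listed as lower in knockout at both ages in the authors' deposited table are Sema3f, Sema4d, Sema4g, Sema6b, Plxna1 and Plxnc1.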

How the data were processed

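RNA of mouse dorsal cortex was measured in 12 libraries, grouped by genotype and age as labelled. Alignment was with STAR 2.5.2b on mm10 according to the submitters' processing notes. Raw counts per gene, as deposited, came from featureCounts 1.5.2 run on read pairs over RefSeq exons, with strand setting 2 (reverse), a minimum overlap of 25 bases and no option to count multi-mapped reads, per the file headers. The authors' deposited comparison tables hold log2 fold changes of WT over knockout and p-values. Per the submitters' processing notes, DESeq2 1.14.1 was used. The 12 normalised library columns of those tables were not used.

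The counts went into edgeR 4.0.16 under R 4.3.3, with TMM scaling, filterByExpr by group, the robust quasi-likelihood F test, Benjamini-Hochberg adjustment over all genes tested and a threshold of 0.05. Each age was fitted on its own 6 libraries, with genotype alone in the model. The age comparisons came from 1 fit of 12 libraries with 4 groups. Log2 fold changes are cKO over WT, or E16.5 over E14.5, and the SE is their size divided by the square root of F. CPM values use effective library sizes after TMM, and levels per kilobase divide them by the exon length in the count tables. Alternatives were DESeq2 1.42.0, other scalings and filters, embryo sex, a replicate block and leaving out libraries. The fits were tested on simulated data, with 100 genes changed 2-fold and 100 changed 1.5-fold. Of these, 74% and 36% were called in the right direction at E16.5, and 48% and 10% at E14.5. The shares were 39% and 7% for the age difference, and 60% and 23% between the ages in WT. Each fit also called 5 to 10 unchanged genes.

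The members, the partner and marker lists and the alternatives were chosen with earlier results of these data known. Members called in a comparison are named with their values. Members not called are named where they have the highest level per length of their role, a change of at least 0.5 log2, or are a receptor or ligand of a called member. Those called only with the block, and Sema3a, Sema3c, Sema4d, Sema4f, Sema5b, Sema6d, Plxnd1 and Nrp2 in some comparisons, were added after their values were seen. At E16.5 the deviations of same-numbered libraries from their group means correlated at 0.281, 0.21 and 0.112, above the limit of 0.1. The title numbers were therefore taken to pair them, from the data and not from the labels. The different-numbered cKO B and WT C also lay above the limit, at 0.107. Libraries of 1 group differed by more than counting noise (chi-square per degree of freedom 9.06 to 48.3). Since separate embryos are not stated, p-values cover only the spread between libraries, part of which may be technical. Each E16.5 group held libraries of both sexes, hence of different embryos, while the E14.5 groups give no such sign.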

Additional observations from a re-analysis of the deposited data

How the results depend on the processing

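The results compared here are the counts of members past an adjusted p of 0.05 and 15 log2 fold changes of named members. Other scalings (DESeq2 size factors, library totals) and other low-count filters (none, or a mean of at least 1 CPM) kept each count within 1.5 times, at 6 to 8 members for cKO against WT at E16.5, 2 at E14.5, 0 for the age difference of the effect and 1 for WT E16.5 against WT E14.5. DESeq2's Wald test called 11 members at E16.5, 10 lower and 1 higher, beside 1770 and 1049 of all 14865 genes. It called 7 members at E14.5 and 6 between the ages in WT. With embryo sex as a term the counts were 3, 0 and 0. At the counts of 0 by edgeR, 10 members had an unadjusted p under 0.05 in each comparison. The fit of 12 libraries called 8 members at E14.5 and 5 at E16.5. Leaving out 1 library gave 2 to 8 members at E16.5, 0 to 3 at E14.5, 0 for the age difference and 0 to 7 between the ages in WT. With the title number as a replicate block the counts were 14 at E16.5, 7 at E14.5 and 0 for the age difference. At E14.5 the title numbers were not taken to pair the libraries, because the C pair lay under the limit of 0.1. It correlated at -0.00218, beside 0.272 for A and 0.304 for B, and cKO C correlated best with WT B (0.0447). Such correlations cannot show whether the numbers pair the libraries at that age. No paired analysis was possible between the ages in WT because they share no title number. Over all genes, E14.5 gave 297 calls against 1279 with the replicate block, 1278 by DESeq2, 1336 in the fit of 12 libraries, 128 when embryo sex was added to that fit and 5 to 66 with 1 library other than cKO A left out. E16.5 gave 2358 calls against 4790 with the block and 2819 by DESeq2. It gave 1882 in the fit of 12 libraries and 1569 when embryo sex was added to that fit. With 1 library left out it gave 987 to 2855. The WT age comparison gave 330 against 2005 by DESeq2, 10 with embryo sex and 1 to 2216 with 1 library left out. Of 221 alternative values of named members, 165 kept their direction and side of the threshold, 46 no longer passed, 10 newly passed and 0 reversed. The causes of these changes were not tested. Depth limits members such as Sema3b, with 16 to 84 counts per library.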
